A study of Mus musculus with 18 samples.

Results

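Spic, Spi1, Bach1, Maf, Nr1h3, Pparg, Irf8, Tfec and Zeb2, 9 genes of transcription factors that act in macrophages, were followed in mouse spleen after exposure to fine airborne particles. They were taken by symbol from a table of 55414 gene rows, of which 52133 matched a symbol in the GENCODE M21 annotation by Ensembl identifier, and each of the 9 had 1 row. All mice were wild type C57BL/6J, and each library was made from polyadenylated RNA. The groups were macrophages isolated from spleen after PM2.5 (n = 5) or filtered air (n = 5), and whole spleen after PM2.5 (n = 4) or filtered air (n = 4), with an exposure of 30 days. PM2.5 stands for fine particulate matter. The PM2.5 libraries are those titled CAP, an abbreviation that is given no expansion. The treatment text names only filtered air and PM2.5, so CAP is taken to mean PM2.5. The treatment text of the macrophages also names filtered air after the exposure, without saying whether this was a recovery period, and the labels do not say how the macrophages were isolated or whether animals were pooled. The libraries are called biological replicates but not tied to animals, so p-values measure the spread between these libraries.

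Red pulp macrophages of the spleen take up old red cells and recycle the iron of their heme. They need SPIC, an ETS-type factor, and BACH1 represses Spic together with small MAF proteins until heme binds BACH1 and the repressor is degraded. PU.1, the product of Spi1, is the ETS-type factor that sets up the macrophage and B cell programmes, and IRF8 is its partner in monocytes, dendritic cells and B cells.

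The promoters of Spic and Bach1 are printed because BACH1 binds with small MAF proteins to elements that hold the letters TGCTGA. The sequences are those of RefSeq on GRCm38.p6, from 250 bases before to 50 bases after the annotated start of transcription, read along the gene's own strand. Capitals mark TGCTGA or its reverse complement TCAGCA, searched on both strands.
Spic, chr10:88682974-88683273, minus strand: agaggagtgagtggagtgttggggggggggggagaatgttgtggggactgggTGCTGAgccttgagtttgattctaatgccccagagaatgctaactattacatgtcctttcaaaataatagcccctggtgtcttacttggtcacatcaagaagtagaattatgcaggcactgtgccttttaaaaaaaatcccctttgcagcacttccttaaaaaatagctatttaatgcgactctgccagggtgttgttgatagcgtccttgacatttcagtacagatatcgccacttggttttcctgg
Bach1, chr16:87698704-87699003, plus strand: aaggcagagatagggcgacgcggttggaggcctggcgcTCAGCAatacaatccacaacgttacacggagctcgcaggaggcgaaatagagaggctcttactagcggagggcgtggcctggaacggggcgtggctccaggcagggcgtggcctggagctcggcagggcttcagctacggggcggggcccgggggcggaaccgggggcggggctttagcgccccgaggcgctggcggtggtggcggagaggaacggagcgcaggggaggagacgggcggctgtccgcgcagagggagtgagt
Each window held 1 match, which began 198 bases before the start in Spic and 212 bases before it in Bach1. Of 32544 distinct promoters of the same length, 19.5% held at least 1 match, so a match is common. The RefSeq start of Spic used here lies inside the longer gene model of GENCODE M21. A promoter was in the table for 7 of the 9 genes. A window of Irf8 (chr8:120738389-120738688) also held 1 match, and no window of Zeb2, Nr1h3, Tfec or Pparg did.

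The genes lie on 5 mouse chromosomes in GRCm38. Spic (ENSMUSG00000004359) is at chr10:88674772-88685015 on the minus strand and Bach1 (ENSMUSG00000025612) at chr16:87698945-87733346 on the plus strand. Spi1 (ENSMUSG00000002111, chr2:91082390-91115756, plus strand) and Nr1h3 (ENSMUSG00000002108, chr2:91184061-91202834, minus strand) are neighbours, and Zeb2 is elsewhere on that chromosome (ENSMUSG00000026872, chr2:44983632-45117395, minus strand). Maf (ENSMUSG00000055435, chr8:115682942-115707794, minus strand) and Irf8 (ENSMUSG00000041515, chr8:120736358-120756694, plus strand) share a chromosome, as do Tfec (ENSMUSG00000029553, chr6:16833373-16898441, minus strand) and Pparg (ENSMUSG00000000440, chr6:115360951-115490399, plus strand). The strand setting of the counting is not given in the sources used here. Zeb2os, on the opposite strand, shares 3.27% of the exonic bases of Zeb2 and had 82 to 540 counts per library in a row of its own. How reads in the shared bases were counted is not known.

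Total counts per library were 18848048 to 33844807 in macrophages after PM2.5, 18107264 to 29013034 in macrophages after air, 18427891 to 19906706 in spleens after PM2.5 and 16493694 to 20352346 in spleens after air. Each of the 8 macrophage markers was detected in every library. Their summed level was 12629 to 17794 CPM, the count scaled to a common library size, in macrophages after PM2.5 and 14641 to 20577 CPM in macrophages after air, against 1628 to 2342 CPM in spleens after PM2.5 and 1760 to 3050 CPM in spleens after air. Lyz2, 1 of the 8, made up most of the spleen sums. It averaged 1448 CPM of 1988 CPM after PM2.5 and 1768 CPM of 2154 CPM after air. In macrophages Lyz2 averaged 1458 CPM after PM2.5 and 1196 CPM after air. After air it was lower in macrophages than in spleen, and the other 7 markers were higher. Markers of other cells were present in the isolated preparations too. All 5 B cell markers were detected in every macrophage library, with a summed level of 1943 to 2973 CPM after PM2.5 and 1639 to 2628 CPM after air, and erythroid markers summed to 3819 to 6192 CPM after PM2.5 and 2394 to 7528 CPM after air. In whole spleen, erythroid markers summed to 816 to 13526 CPM after PM2.5 and 280.2 to 2760 CPM after air, and mesothelial markers to 22.0 to 201 CPM after PM2.5 and 2.58 to 4.52 CPM after air. Liver transcripts summed to 71.2 CPM in 1 spleen of the air group and 37.0 CPM in another, and to no more than 7.56 CPM in the other spleens.

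All 9 genes were higher in isolated macrophages than in whole spleen, in both exposure groups. Pparg, Maf and Spic stood out most after air, with folds of 75.5, 19.1 and 18.6, and Irf8 differed least, by 1.69-fold. Within each exposure every macrophage library lay above every spleen library for each of the 9 genes, as in 23.3% of all tested genes after PM2.5 and 29.9% after air. The test was edgeR's quasi-likelihood test with Benjamini-Hochberg adjustment over 17779 genes, in a joint fit of the 18 libraries. It called 9 of 9 higher after PM2.5, where 28.3% of all tested genes were called higher, and 9 of 9 after air, where 33.3% were. Isolation and experiment cannot be told apart in this contrast, and in bulk RNA fewer cells of a type and less RNA per cell cannot be told apart either.

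Among the ETS-type factors, Spic averaged 586 ± 98.1 CPM in macrophages after PM2.5 (SD, n = 5) against 40.8 ± 6.34 CPM in spleens after PM2.5 (SD, n = 4), which edgeR put at 3.84 on the log2 scale (SE 0.210, adjusted p = 2.42e-11). After air the log2 fold change of Spic was 4.22 (SE 0.214, adjusted p = 5.43e-12). Spi1 had a smaller difference, with log2 fold changes of 1.73 after PM2.5 and 2.14 after air (adjusted p = 0.000172 and 1.58e-05). B cells, which make up much of the spleen, also express Spi1 and Irf8. Irf8 had log2 fold changes of 0.82 after PM2.5 and 0.75 after air, the smallest of the 9 in both. The factors that bind MAF-type elements differed from each other, with Maf at 3.46 after PM2.5 and 4.25 after air and Bach1 at 1.24 and 1.35. Of the lipid-activated nuclear receptors, Pparg had 4.73 after PM2.5 and 6.24 after air, and Nr1h3, which encodes LXR alpha, 3.13 and 3.35. Tfec, a relative of MITF, had 3.33 after PM2.5 and 3.46 after air, and Zeb2, a zinc finger repressor of tissue macrophages, 1.97 and 2.43.

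**Figure D1:**
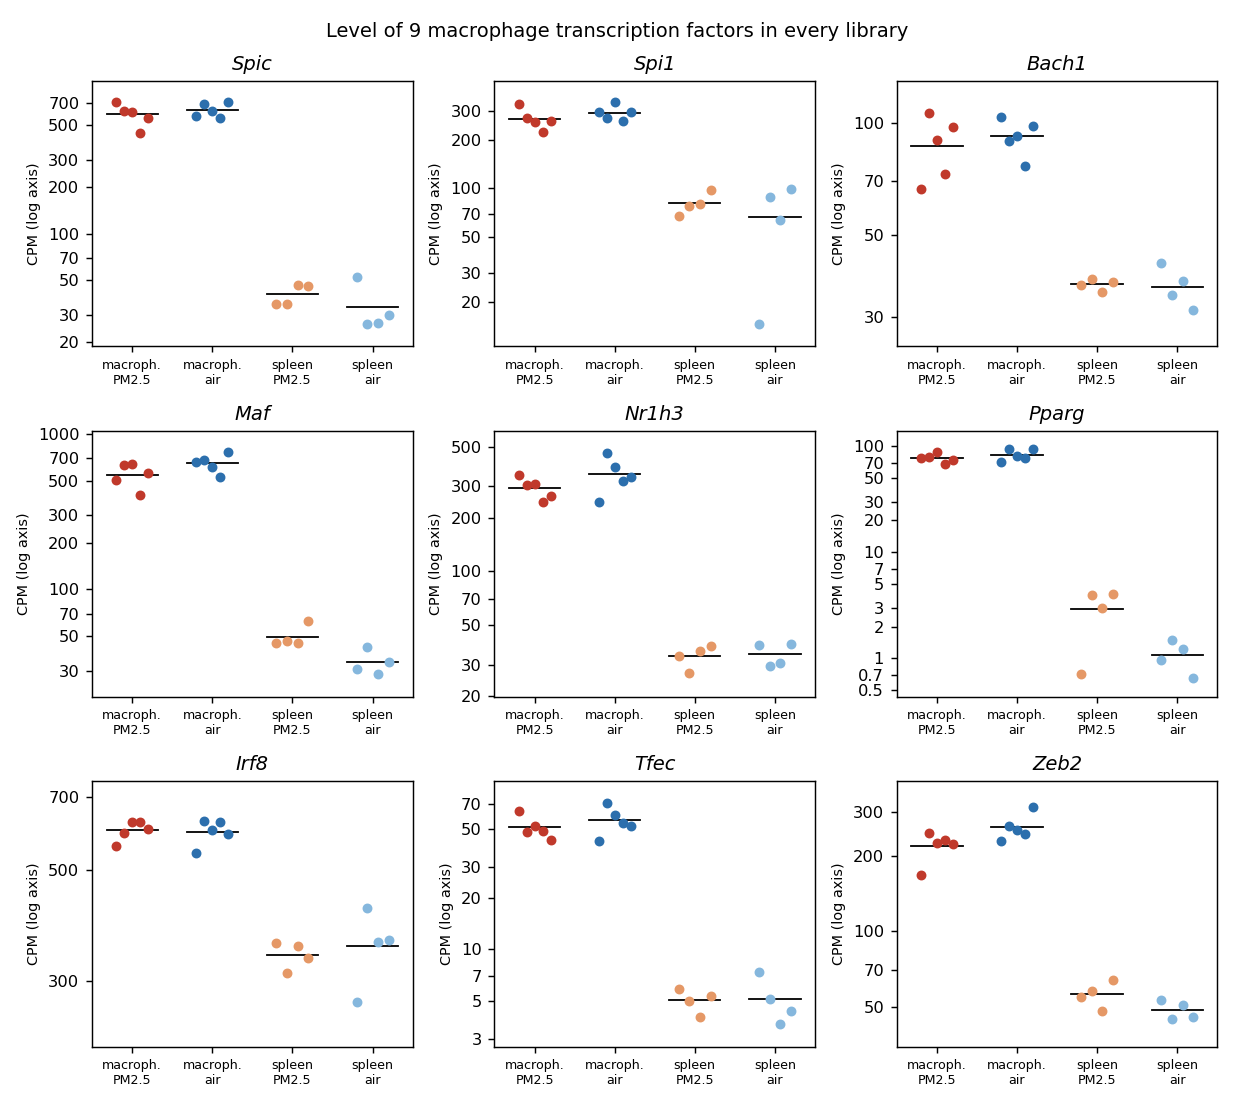
Level of each gene (CPM, log axis) in each library. Points are libraries in order of replicate number, lines are group means, and the groups run from macrophages after PM2.5 and air (n = 5 each) to spleens after PM2.5 and air (n = 4 each). For every gene the macrophage libraries lie above the spleen libraries, and the Spi1 point at 14.7 CPM is spleen air replicate 1.

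The order of the genes by level per kilobase of exon was not the same in the 2 preparations. The length used was that of all annotated exons of a gene merged, from 2515 bases for Nr1h3 to 19942 for Zeb2. It can differ from the length of the transcript expressed, so the order depends on it. In macrophages Spic led, with 153 ± 25.5 CPM per kb after PM2.5 and 164 ± 17.3 CPM per kb after air (SD, n = 5 each). Nr1h3 followed with 117 ± 16.3 and 139 ± 31.8 CPM per kb, Spi1 with 99.8 ± 14.8 and 109 ± 11.7, and Irf8 with 85.1 ± 3.81 and 84.5 ± 4.89, each after PM2.5 and after air. The ranges of Spic and Nr1h3 overlapped in both groups, as did those of Nr1h3 and Spi1. Maf came next, and Pparg stood clear of its neighbours on both sides. Bach1, Zeb2 and Tfec closed the order with overlapping ranges and means of 14.0 ± 2.70, 11.0 ± 1.50 and 9.17 ± 1.38 CPM per kb after PM2.5. Without scaling to length Spic did not lead in macrophages. Irf8 averaged 601 CPM and Spic 586 CPM after PM2.5, and Maf 648 CPM and Spic 630 CPM after air. In spleen Irf8 led, with 48.1 ± 2.92 CPM per kb after PM2.5 and 50.1 ± 8.64 CPM per kb after air (SD, n = 4 each), and did not overlap with Spi1, the next. Spic was the fourth in spleen, with 10.6 ± 1.65 CPM per kb after PM2.5 and 8.81 ± 3.28 after air, and its range overlapped with that of Nr1h3 above it. Pparg was the lowest after air, with 0.367 ± 0.121 CPM per kb. After PM2.5 its 0.992 ± 0.526 CPM per kb overlapped with the 0.907 ± 0.139 of Tfec.

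The first exposure comparison asked whether the genes differed in whole spleen after 30 days of PM2.5. In edgeR's quasi-likelihood test, 0 of the 9 passed the adjusted p threshold of 0.05, where 0.0121% of all 16551 tested genes (2 genes) were called. That count of all genes was 219 without air replicate 2, 136 without PM2.5 replicate 1, and 0 to 2 without any other 1 library. At an unadjusted p under 0.05 there were 2 of the 9, Maf and Pparg, both higher, where 16.7% of all tested genes reached this level. The log2 fold change of 6 genes was above 0 and that of 3 below, with a median of 0.20, against a median of 0.017 over all genes tested, of which 51.8% were above 0. DESeq2 called 0 of the 9 and limma-voom 0, where they called 830 and 1 of all genes.

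Maf, which encodes the c-MAF factor of macrophages and some T cells, had 45.0, 46.4, 45.4 and 62.3 CPM in spleens after PM2.5, against 30.6, 42.7, 28.4 and 34.3 CPM in spleens after air. The groups did not overlap, as in 8.98% of all tested genes. The PM2.5 spleens were higher by 1.46-fold (log2 fold change 0.54, SE 0.163, adjusted p = 0.149; unadjusted p = 0.00665), which did not pass. The fourth PM2.5 replicate was the highest, and without it the log2 fold change was 0.42. T cell markers had a summed level of 616 to 777 CPM after PM2.5 and 802 to 1131 CPM after air, and all 6 were detected in every library. Their part in the Maf values was not tested.

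Pparg, the lipid-activated receptor of alveolar and red pulp macrophages and of fat cells, was scarce in whole spleen. It had 0.710, 3.94, 3.01 and 4.06 CPM after PM2.5, from 17, 82, 67 and 87 counts, against 0.962, 1.49, 1.23 and 0.659 CPM after air, from 16, 31, 26 and 12 counts. PM2.5 replicate 1 lay among the air libraries, and the other 3 PM2.5 libraries lay above all of them. The fitted difference was 2.67-fold (log2 fold change 1.42, SE 0.532, adjusted p = 0.218; unadjusted p = 0.0219). A fit of all 18 libraries together called it (1.40, SE 0.357, adjusted p = 0.0295), where that fit called 1050 of 17779 tested genes. Without PM2.5 replicates 2 and 4 the log2 fold change was 0.78 (SE 0.682). Pparg was highest in PM2.5 replicates 4 and 2, whose erythroid markers summed to 8767 and 13526 CPM, and lowest among the PM2.5 libraries in replicate 1, with 816 CPM. The mesothelial sums of the PM2.5 libraries, from replicate number 1 to 4, were 22.0, 32.8, 105 and 201 CPM. Whether these cells took part in the Pparg values was not tested.

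Spic had 35.4, 35.3, 46.7 and 45.9 CPM in spleens after PM2.5, against 52.6, 26.0, 26.8 and 30.0 CPM in spleens after air. The highest value of all 8 was that of air replicate 1, and the other 3 air libraries lay below every PM2.5 library. With all libraries the difference was small against its error (log2 fold change 0.27, SE 0.221, adjusted p = 0.581). Without air replicate 1 it was 0.55 (SE 0.144, unadjusted p = 0.00318, adjusted p = 0.138), still not called. Without the 2 air spleens that held liver transcripts, replicates 3 and 4, it was 0.060 (SE 0.275).

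Spi1 had 67.6, 77.6, 80.7 and 98.2 CPM in spleens after PM2.5, against 14.7, 88.1, 64.0 and 99.0 CPM in spleens after air. Air replicate 1 had 244 counts where the other spleens had 1354 to 2105, and the PM2.5 values lay inside the range of the other 3 air libraries. The log2 fold change was 0.28 (SE 0.423, adjusted p = 0.784) with it and -0.060 (SE 0.164) without it. Among 9331 genes with a mean of at least 10 CPM in the other air spleens, Spi1 was the 24th lowest in air replicate 1 relative to them, 5.32-fold below. That library also departed from the others by base composition. Over these genes the deviation from the other air spleens correlated with the GC content of the longest transcript at r = -0.61, against -0.20 to 0.52 in the other 17 libraries, each set against the rest of its own group (a description across genes, which are not independent). In it 62 genes were at least 4-fold below the other air spleens, and their median GC content was 60.0%, against 49.3% over all. PM2.5 replicate 1 of the spleen had 79 such genes, and the other spleens 1 to 7. The longest transcript of Spi1 has 58.9% GC and that of Spic 41.8%, the ones of Tfec and Zeb2 40.3% and 40.6%, and that of Nr1h3 56.8%. In air replicate 1 Nr1h3 stood 0.23 above the other air spleens on the log2 scale, and Spi1 2.41 below them. The same library had the highest Tfec and Bach1 levels, the highest summed macrophage markers and the lowest Irf8 level of the 8 spleens. Of its 3050 CPM of macrophage markers Lyz2 held 2562 CPM. The part of base composition in these values was not tested.

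**Figure D2:**
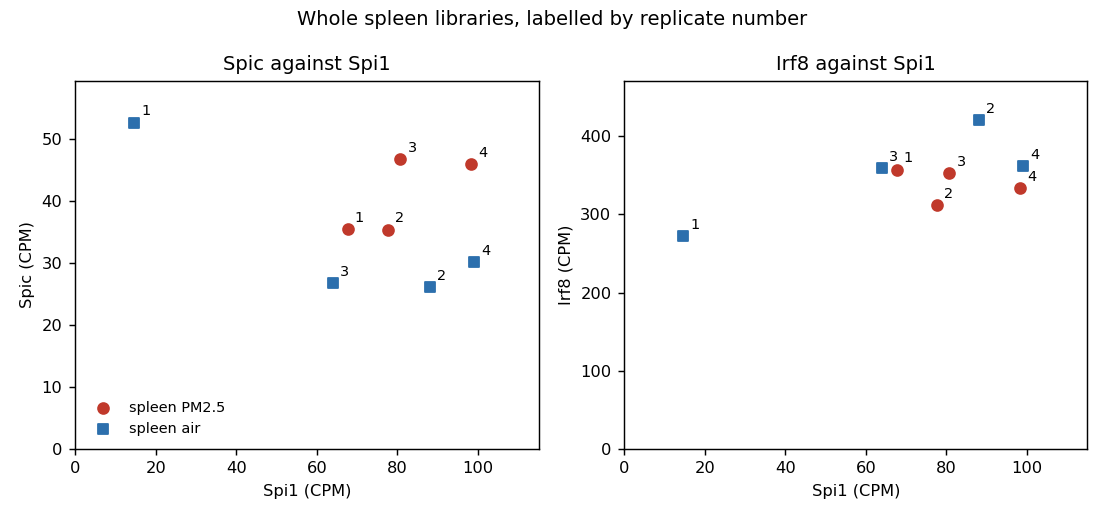
Spic (left) and Irf8 (right) against Spi1, in CPM, in the 8 whole spleen libraries, with circles for PM2.5, squares for air and replicate numbers beside them. Air replicate 1 stands apart at 14.7 CPM of Spi1 with the highest Spic, 52.6 CPM, and the lowest Irf8, 272.6 CPM.

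None of the other 5 genes had a spleen difference larger than 2 SE. Bach1 had 36.5, 38.1, 35.0 and 37.4 CPM after PM2.5 and 41.9, 34.3, 37.4 and 31.2 CPM after air, and the PM2.5 values lay within the range of the air values (log2 fold change 0.021, SE 0.125, adjusted p = 0.953). The interval of its difference, 2 SE on either side, ran from -0.23 to 0.27 on the log2 scale. Irf8 had 357, 312, 353 and 334 CPM after PM2.5 and 273, 420.5, 359 and 362 CPM after air (log2 fold change -0.065, SE 0.139, adjusted p = 0.85), also with the PM2.5 values inside the air range. Nr1h3, whose product is needed for the macrophages of the splenic marginal zone, had 33.6, 26.9, 35.6 and 38.3 CPM after PM2.5 and 38.7, 29.4, 30.6 and 39.1 CPM after air (log2 fold change -0.041, SE 0.154, adjusted p = 0.918), and the groups overlapped. Zeb2 had 54.6, 57.7, 48.2 and 63.8 CPM after PM2.5 and 53.4, 44.8, 50.9 and 45.6 CPM after air (log2 fold change 0.20, SE 0.123, adjusted p = 0.442). Its overlap came from PM2.5 replicate 3, which lay inside the air range, while the other 3 PM2.5 libraries lay above it. Tfec was low, with 4.05 to 5.89 CPM after PM2.5 and 3.69 to 7.34 CPM after air, a log2 difference of -0.016 (SE 0.274), and its sign turned in several alternatives.

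The second exposure comparison asked the same of the isolated macrophages. Again 0 of the 9 were called by edgeR, where 0% of all 15696 tested genes were, and the count of all genes reached 17 where air replicate 4 was left out and 3 where PM2.5 replicate 2 was. Of the 9, 1 had an unadjusted p under 0.05, Zeb2, where 10.9% of all tested genes did. DESeq2 called 0 of the 9 and 175 of all genes, and limma-voom called 0 of each. The log2 fold change was below 0 for 8 genes and above 0 for Irf8, with a median of -0.12, against 0.0062 over all genes tested, of which 51.4% were above 0. In the same libraries 7 of 8 macrophage markers (median -0.20) and 4 of 5 conventional dendritic cell markers (median -0.48) were below 0, and all 5 tested neutrophil markers (median 2.21) and all 5 plasma cell markers (median 1.01) above 0. All 5 monocyte (median 0.22), 5 B cell (0.17), 8 erythroid (0.26) and 4 tested platelet markers (0.40) were above 0 too. So were 5 of 6 T cell markers (median 0.39). All 5 endothelial markers (median -0.29), 2 of 3 tested plasmacytoid dendritic cell markers and the 1 tested mesothelial marker were below 0. Neutrophil markers summed to 28.7 to 121 CPM after PM2.5 and 16.4 to 39.8 CPM after air, and conventional dendritic cell markers to 125 to 171 CPM after PM2.5 and 144 to 279 CPM after air. The part of these cells in the values of the 9 genes was not tested.

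Zeb2 had 169, 248, 225, 232 and 224 CPM in macrophages after PM2.5, against 231, 264, 254, 246 and 315 CPM in macrophages after air. The groups overlapped, and PM2.5 replicate 1 was the lowest of the 10 and air replicate 5 the highest (log2 fold change -0.25, SE 0.111, adjusted p = 0.444). The treatment tag of this PM2.5 library reads air, against its title. Without it the log2 fold change of Zeb2 was -0.18 (SE 0.0819), and with it counted as air -0.093 (SE 0.131).

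Spic, the most abundant of the 9 per kilobase here, had 710.0, 616, 609, 443 and 553 CPM in macrophages after PM2.5, against 577, 689.6, 618, 559 and 708 CPM in macrophages after air. Both the highest and the lowest value were PM2.5 libraries, replicates 1 and 4 (log2 fold change -0.10, SE 0.122, adjusted p = 0.791), and the interval of the difference ran from -0.34 to 0.14 on the log2 scale. Maf had 504, 625, 641, 406 and 556 CPM after PM2.5 and 662, 674, 615, 524 and 766 CPM after air (log2 fold change -0.24, SE 0.134, adjusted p = 0.541). PM2.5 replicate 4 was the lowest and air replicate 5 the highest, and the groups overlapped. Macrophage markers were also lowest in PM2.5 replicate 4, with a summed level of 12629 CPM, and highest in air replicate 5, with 20577 CPM.

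Nr1h3 had 348, 306, 309, 244 and 264 CPM in macrophages after PM2.5, against 246, 462, 385, 321 and 339.7 CPM in macrophages after air (log2 fold change -0.25, SE 0.155, adjusted p = 0.587). Air replicate 1 was at the low end of the PM2.5 values and air replicate 2 the highest of all. Pparg, at 77.3, 78.5, 89.1, 68.3 and 73.8 CPM after PM2.5 and 70.4, 94.2, 80.9, 77.8 and 93.6 CPM after air, had overlapping groups in these cells (log2 fold change -0.10, SE 0.0960, adjusted p = 0.717), and the interval of its difference ran from -0.29 to 0.090. Spi1 had 333, 272, 257, 223 and 259 CPM after PM2.5 and 296, 271, 341, 259 and 297 CPM after air (log2 fold change -0.12, SE 0.111, adjusted p = 0.719), with replicate 1 of the PM2.5 group near the top of the air range. Bach1 had 66.6, 106, 90.1, 73.0 and 97.9 CPM after PM2.5 and 104, 89.8, 92.2, 76.8 and 98.1 CPM after air (log2 fold change -0.082, SE 0.127, adjusted p = 0.835), and Tfec 43.1 to 63.8 CPM after PM2.5 and 42.9 to 71.4 CPM after air (log2 fold change -0.14, SE 0.137, adjusted p = 0.738). Irf8 varied least of the 9, with 559 to 624 CPM after PM2.5 and 542 to 627 CPM after air (log2 fold change 0.014, SE 0.0696, adjusted p = 0.957; interval -0.13 to 0.15). For these 5 genes the groups overlapped.

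**Figure D3:**
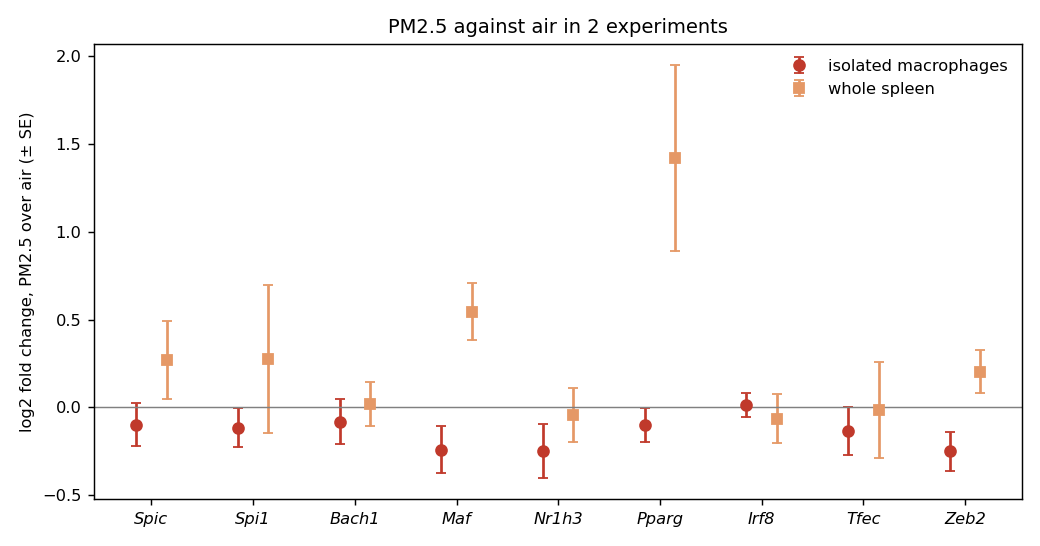
Log2 fold change of PM2.5 over air for each gene, with its standard error, in isolated macrophages (circles, 5 libraries a group) and whole spleen (squares, 4 a group). The spleen values of Maf and Pparg lie above 0, and the macrophage value of Zeb2 below 0, by more than 2 SE, and none passed the adjusted threshold.

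Whether the PM2.5 effect differed between the preparations was tested as a contrast in the joint fit, macrophages minus spleen. Of the 9 genes 0 were called, where 1.46% of 17779 tested genes (259) were, 74 of them higher. With DESeq2's size factors in place of TMM scaling 230 genes were called, 38 of them higher. The difference was below 0 for 8 of the 9 genes and above 0 for Irf8, where 47.3% of all tested genes were above 0. Maf came to -0.79 (SE 0.216, adjusted p = 0.0611), Pparg to -1.51 (SE 0.429, adjusted p = 0.0687) and Zeb2 to -0.46 (SE 0.166, adjusted p = 0.131). Maf and Pparg stood close to the threshold, and DESeq2 called both (adjusted p = 0.0129 and 0.00971), where it called 5.87% of all tested genes. Both were also called by edgeR without spleen air replicate 2 (0.0192 for Maf and 0.0374 for Pparg), and Pparg without spleen PM2.5 replicate 1 (0.00181). Those fits called 1317 of 18285 and 286 of 18143 tested genes. Spic came to -0.38 (SE 0.258, adjusted p = 0.424), and to -0.66 without spleen air replicate 1.

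The level of Spic was also set against 16 genes known from red pulp macrophages, among them Vcam1, an adhesion molecule, Slc40a1, which encodes the iron exporter ferroportin, and Hmox1, the heme-degrading enzyme. This list was chosen with its higher values in the PM2.5 spleens already known, so neither its direction there nor the level of Spic relative to it is independent evidence, and no test is given. In spleen all 16 had log2 fold changes above 0, with a median of 0.75 against 0.017 over all genes, and 0 of 16 were called, where 13 had an unadjusted p under 0.05, against 16.7% of all tested genes, and DESeq2 called 5, all higher, against 3.27% of all tested genes called higher. The 8 macrophage markers, 5 of which are also on this list, had 7 above 0 there and a median of 0.54. The measure was log2(CPM + 1) of Spic minus the mean of the 16. It was 0.11, -0.19, 0.13 and -0.29 in spleens after PM2.5, against 0.55, 0.27, 0.56 and 0.72 in spleens after air. All PM2.5 values lay below all air values, that of air replicate 1 with the highest Spic included. The means differed by -0.58. Against the 8 macrophage markers instead, the difference was -0.30. In macrophages the measure was -0.99, -1.15, -1.22, -1.20 and -1.21 after PM2.5 and -1.19, -1.21, -1.24, -1.15 and -1.31 after air, a difference of 0.067, with overlapping groups.

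**Figure D4:**
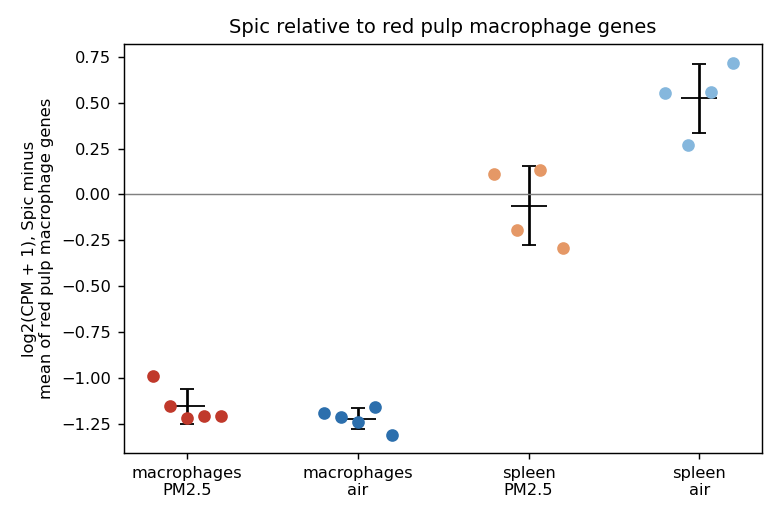
Spic relative to 16 red pulp macrophage genes, as log2(CPM + 1) of Spic minus their mean, in each library, with group means and SD (n = 5, 5, 4 and 4). Spleens after PM2.5 lie between -0.29 and 0.13 and spleens after air between 0.27 and 0.72, while the macrophage groups overlap.

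Relatives and known targets of the 9 genes were counted in the same fits. In spleen DESeq2 called 2 PU.1 targets, 1 BACH1 or NRF2 target and 2 LXR targets, all higher, and 0 of the PPAR gamma and IRF8 lists, where it called 3.27% of all tested genes higher. In macrophages it called 0 of each of these lists, and 1.11% of all tested genes. At an unadjusted p under 0.05, to which the counts below refer, there were 16.7% of all tested genes in spleen and 10.9% in macrophages. Of 17 family relatives 16 were tested, Ppara being too low, and 0 were called in either exposure comparison. In spleen 10 of the 16 were above 0 and 6 below (median 0.055), 3 of them at an unadjusted p under 0.05. Mafg, a small MAF partner of BACH1, had a log2 fold change of 0.55 there (SE 0.196, adjusted p = 0.2), and Mafk, another, 0.34 (SE 0.153, adjusted p = 0.295). In macrophages 5 were above 0 and 11 below (median -0.068). Other factors of macrophages gave 11 of 16 above 0 in spleen (median 0.16) and 3 of 16 in macrophages (median -0.099), with 0 called in both and 3 and 2 at an unadjusted p under 0.05. Among them were Klf4 in macrophages (-0.45, SE 0.129, adjusted p = 0.287) and Cebpb in spleen (1.12, SE 0.390, adjusted p = 0.191). Among the air spleens Mafg, Mafk and Cebpb were all lowest in air replicate 1, at 27.1, 28.0 and 7.10 CPM. Their air means were 42.8, 34.0 and 13.4 CPM. The part of that library, which departed by base composition, in these 3 differences was not tested.

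Of 12 genes that BACH1 represses or NRF2 activates, 7 were above 0 in spleen (median 0.18) and 9 in macrophages (median 0.11), and 0 were called, with 4 in spleen, 3 higher and 1 lower, and 0 in macrophages at an unadjusted p under 0.05. The lower one was Slc7a11, a cystine transporter (-0.39, SE 0.163, adjusted p = 0.264), named after its value was seen. Of the 12 genes, 2 are also among the 16 red pulp genes, Slc40a1 being 1 of them. Slc40a1 had a log2 fold change of 1.25 in spleen (SE 0.303, adjusted p = 0.124), with 89.9 ± 23.5 CPM after PM2.5 and 37.7 ± 19.8 CPM after air (SD, n = 4 each). In macrophages it had 3153 ± 552 CPM after PM2.5 and 3161 ± 699 CPM after air (SD, n = 5 each). Gclm and Nqo1, antioxidant enzymes, had 1.37 (SE 0.462, adjusted p = 0.18) and 1.50 (SE 0.604, adjusted p = 0.251) in spleen.

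Of 14 PU.1 targets, 8 were above 0 in spleen (median 0.12) and 4 in macrophages (median -0.070), with 0 called and 4 in spleen and 2 in macrophages at an unadjusted p under 0.05. In the difference between preparations, where 1.04% of all tested genes were called lower, 2 were called lower, Fcgr1, a high-affinity antibody receptor (-2.78, adjusted p = 0.0183), and Csf1r, the receptor for the macrophage growth factor (-0.90, adjusted p = 0.0434). Fcgr1 was near the floor in spleen, with 46 to 102 counts per library after PM2.5 and 0 to 18 after air. In macrophages it averaged 81.3 CPM after PM2.5 and 85.7 CPM after air. Csf1r is also 1 of the 16 red pulp genes, of which 4 were called lower in that contrast. Over the alternatives the calls in that contrast ran from 0 to 2 for the PU.1 targets and from 0 to 12 for the red pulp genes. Of 12 LXR targets, 10 were above 0 in spleen (median 0.13) and 3 in macrophages (median -0.13). Cd5l, a secreted macrophage protein and also 1 of the 16 red pulp genes, had 1.75 in spleen (SE 0.494, adjusted p = 0.141). Of 9 PPAR gamma targets 7 were above 0 in spleen (median 0.25) and 6 in macrophages (median 0.064), and of 11 IRF8-dependent genes of dendritic cells 7 in spleen (median 0.13) and 3 in macrophages (median -0.16). In these 3 lists edgeR called 0 in either exposure comparison, and at an unadjusted p under 0.05 there were 2 LXR, 1 PPAR gamma and 2 IRF8 genes in spleen, and 0, 1 and 2 in macrophages.

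**Figure D5:**
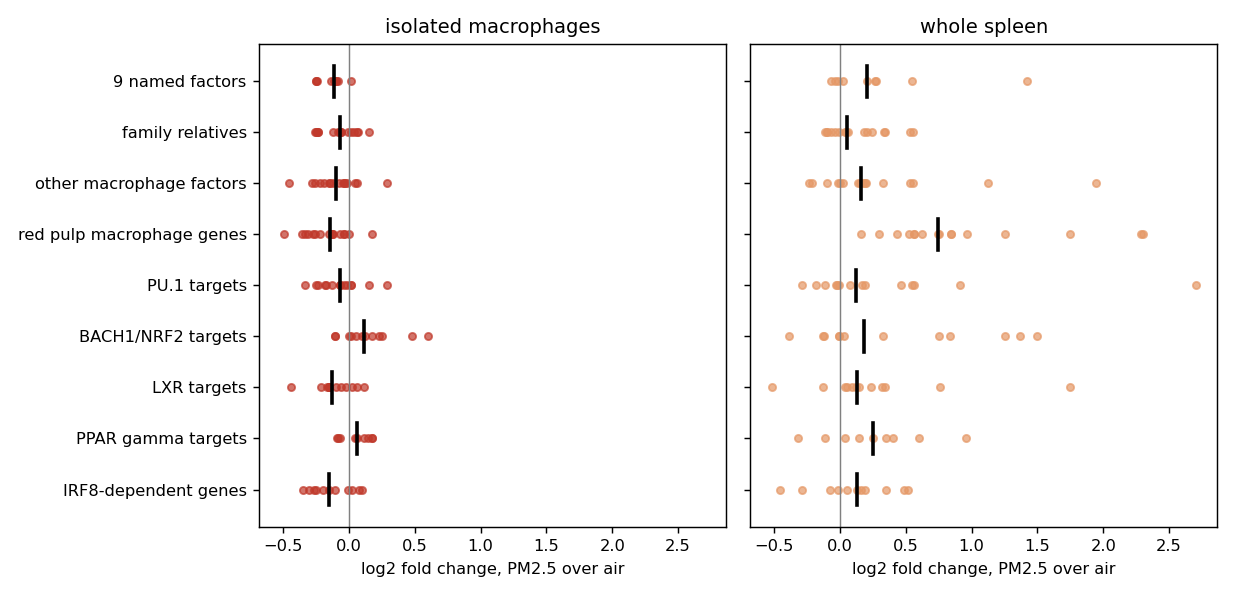
Log2 fold change of PM2.5 over air for the tested genes of each list, in isolated macrophages (left) and whole spleen (right). Points are genes and black bars list medians, and the red pulp macrophage genes have the highest spleen median, 0.75, and a macrophage median of -0.14.

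Likeness to Spic was described over 14562 genes with a mean of at least 1 CPM, as Pearson's r of log2(CPM + 1) over the 18 libraries. By level the 5 nearest genes were Hfe, Rab32, Vcam1, Adrb1 and Fcna, with r of 0.998, 0.998, 0.998, 0.998 and 0.997, values that include the gap between the 2 preparations. By deviation from the group mean the 5 nearest were Ctsl (0.95), Laptm4a (0.94), Hfe (0.93), Vcam1 (0.92) and Hmox1 (0.92). Ctsl encodes a lysosomal protease and Hfe an iron-sensing membrane protein. The libraries share their depth and cell content in these values, and the deviations of Spic ran with the mean of the macrophage markers at r = 0.90 over the 18 libraries, 0.90 within spleen and 0.90 within macrophages. Within spleen they ran as closely with monocyte markers (0.91), and also with those of conventional dendritic cells (0.86) and neutrophils (0.83). Within macrophages these r were 0.39, 0.025 and 0.71. Spleen air replicate 1, with the highest Spic of the spleens, had neutrophil markers of 69.6 CPM, where the other air spleens had 2.69 to 4.40 CPM. How far this library sets the r values of the deviations was not tested.

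Within groups the 9 genes did not vary as one. The part of spleen air replicate 1 in the values below was not tested. Nr1h3 and Tfec had r = 0.91 over the 10 macrophage libraries and 0.27 over the 8 spleens. Spic and Nr1h3 had 0.70 in macrophages and 0.68 in spleen, and Spic and Maf 0.67 in macrophages and -0.11 in spleen. Spi1 and Irf8 had -0.64 in macrophages and 0.84 in spleen, where both were lowest in air replicate 1. Bach1 had 0.74 with Maf and 0.10 with Spic in macrophages. Its deviations ran against those of plasma cell markers in macrophages (r = -0.92), the most extreme r of any of the 9 genes with any marker list there. In spleen this r was 0.12. The summed level of plasma cell markers in macrophages was 1041 to 3944 CPM after PM2.5 and 463 to 1868 CPM after air. PM2.5 replicates 1 and 4 had the highest sums, 3944 and 3509 CPM. They also had the lowest Bach1 of the macrophage libraries, 66.6 and 73.0 CPM. The nearest gene by deviation was Arhgdia for Spi1 (0.98), Synj1 for Bach1 (0.89), Btnl4 for Maf (0.87), P2rx4 for Nr1h3 (0.85), Oaf for Pparg (0.90), Chtf8 for Irf8 (0.95), Calr for Tfec (0.83) and F830016B08Rik for Zeb2 (0.89).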

How the data were processed

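Gene counts of 18 RNA-seq libraries, raw and not normalized, were deposited by the authors as 1 table. Per the submitters' processing notes HTSeq 0.10.0 and FastQC 0.10.1 were used with GRCm38 (mm10). For the aligner, annotation release and strand setting, nothing is given in the sources used here. The 3281 rows matched to no symbol hold 0.303% of the counts and stayed in. Groups follow the titles, and the 1 library whose treatment tag reads air against its title was kept as PM2.5.

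Each exposure comparison was fitted alone with edgeR 4.0.16 (R 4.3.3): TMM scaling, filterByExpr (count minimum 10, total minimum 15), quasi-likelihood test, Benjamini-Hochberg threshold 0.05 over all tested genes. A joint fit of 18 libraries gave the contrasts between preparations. Levels are CPM with TMM scaling over all libraries, per kilobase of GENCODE M21 exons where genes are compared. Intervals are 2 SE on either side. Alternatives included DESeq2 1.42.0, limma 3.58.1 (voom), other scalings and filters, and leaving out libraries. The scripts were checked on simulated data. The 9 genes, the gene and marker lists, and the tests were chosen with earlier results of these data known, and for that reason the planned exact test of Spic relative to red pulp genes is not reported. Genes of a list were named by a fixed rule, up to 3 with the smallest p in each list, and the values of 1 such gene are not reported here. The replicate numbers were not taken to pair libraries. Same-numbered libraries deviated together at r of -0.16 to 0.36, against -0.44 to 0.24 for differently numbered ones. The highest r, 0.36 and 0.33, were those of the macrophage libraries numbered 4 and 5, so these values do not settle whether numbers pair libraries. No 2 libraries of a group were copies.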

Additional observations from a re-analysis of the deposited data

Results flagged for a closer look

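Among 40 sets of values, those of the 9 genes and of Spic relative to the red pulp genes in each of 4 groups, 2 held a library far from the rest of its group by Dixon's criterion, which chance gives for about 1 in 20. Spic stood at 52.6 CPM in spleen air replicate 1, where the other 3 air spleens had 26.0 to 30.0 CPM, a gap of 0.849 of the range. Maf stood at 62.3 CPM in spleen PM2.5 replicate 4, where the other 3 PM2.5 spleens had 45.0 to 46.4 CPM, a gap of 0.918 of the range.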

How the results depend on the processing

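Of 1097 values of single genes recomputed under the alternatives, 1067 kept their direction and their side of the threshold, 6 newly passed it, 0 no longer passed it and 24 turned their sign. All 9 genes stayed called in both contrasts of macrophages against spleen in every alternative run. In the difference between preparations the count of the 9 called was 2 with DESeq2 and 0 to 2 over the fits that each left out 1 library. In whole spleen the joint fit called 1, Pparg. Of all genes the difference between preparations called 259, with 68 to 1317 without 1 library (1317 without spleen air replicate 2), while DESeq2 called 1044, limma-voom 3, the replicate block 46 and the swap of the label of macrophage PM2.5 replicate 1 called 87, with 9 called without spleen air replicates 3 and 4 and 48 without spleen PM2.5 replicates 2 and 4. The replicate block called 0 of the 9 genes in each exposure comparison. Among all genes in spleen, edgeR called 2, DESeq2 830, the joint fit 1050, the fit with no filter 461, that with at least 1 CPM 12 and the replicate block 3, and fits without 1 library 0 to 219. In macrophages the count was 0 with edgeR, 175 with DESeq2 and 0 to 17 without 1 library. Spleen Tfec was 0.0011 with DESeq2, 0.031 with limma-voom, 0.015 with no filter and 0.011 with the replicate block, and -0.15 to 0.19 over left-out libraries. Over left-out libraries spleen Spi1 was -0.060 to 0.54, Nr1h3 -0.11 to 0.073, Bach1 -0.039 to 0.089 and Irf8 -0.18 to 0.024, macrophage Irf8 -0.019 to 0.031, and the difference -0.021 to 0.18 for Irf8 and -0.34 to 0.018 for Tfec. Without spleen air replicates 3 and 4 spleen Bach1 was -0.046 and the Tfec difference 0.17, and without spleen PM2.5 replicates 2 and 4 Nr1h3 was 0.023 and Irf8 0.015 (both alternatives chosen after seeing the data). With macrophage PM2.5 replicate 1 counted as air, Bach1 was 0.054 in macrophages and 0.041 in the difference. Spic relative to red pulp genes differed in spleen by -0.67 to -0.51 over left-out libraries, by -0.30 against macrophage markers and by -0.58 with the replicate block, and in macrophages by -0.014 with that swap of labels, chosen after seeing the data. The cause of these changes was not tested. Pparg rests on 12 to 87 counts per spleen, which limits its precision.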
